A study of Mus musculus with 6 samples.

Results

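The cytosolic ribosomal proteins of the mouse organ of Corti, the hearing epithelium of the inner ear, were compared between animals lacking pejvakin and wild-type animals. They were taken as all probe sets whose only gene symbol in the platform annotation was Rpsa, Rplp0, Rplp1 or Rplp2, or began with Rpl or Rps and a digit, without the ribosomal S6 kinases and without symbols marked as pseudogenes. This gave 219 probe sets of the 35557 in the table and of the 21789 that carried a single symbol, for 63 of 19938 gene symbols. Of these 63, 34 were counted to the large subunit and 22 to the small subunit, 6 were paralogs, and 1, Rps19bp1, encodes a binding partner and not a ribosomal protein. Pseudogenes were left out by symbol only, and the paralog Rps4l is listed as a transcribed pseudogene. The subunit counts include Rpl32l and Rps23rg1, which are copies of other genes. Another 239 probe sets listed a ribosomal protein together with other genes and were left out, so 20 symbols, among them Rpl3, Rpl11, Rps23 and Rps27, are not analysed here.

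The knockout mice were Pjvk-/-, homozygous for an inactivated Pjvk gene, and the wild-type mice Pjvk+/+. The strain background of both was C57BL/6J-129/Sv, and the organ of Corti was dissected at postnatal day 15. Each genotype had 3 samples on 1 array each, 6 arrays in all, with 100 ng of total RNA as input. The labels do not say how many animals a sample held, what their sex was or whether samples were littermates, so the tests measure the spread between these samples. Values are log2 signals as deposited, and a difference is the knockout mean minus the wild-type mean on that scale.

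Together with ribosomal RNA, ribosomal proteins form the small subunit, which reads the messenger RNA, and the large subunit, which joins the amino acids. Nearly every protein is needed once in each ribosome, and the mRNAs of these proteins share a tract of pyrimidines at the cap, the terminal oligopyrimidine (TOP) motif, through which mTOR signalling and the binding protein Larp1 control their translation together. Pejvakin is a gasdermin-family protein whose loss causes deafness in mouse and human. In hair cells and auditory neurons it is known for its role at peroxisomes under noise stress.

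The pyrimidine tract can be seen at the RefSeq start site of some members, with differences on either side of zero. The windows below run from 10 bases before to 20 bases from the start, 30 bases in all, with the longest unbroken run of C and T in capitals (RefSeq, GRCm38.p6, gene strand). Rps6 and Rps18 were chosen as members at or above zero, Rplp2, Rps12 and Rps15 as members with at least 1 probe set completely below the wild-type arrays, and Rpl10l as a paralog.
Rps6 (chr4:86857348-86857377, minus strand): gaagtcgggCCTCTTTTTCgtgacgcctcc
Rps18 (chr17:33955646-33955675, minus strand): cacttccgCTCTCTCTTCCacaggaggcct
Rplp2 (chr7:141447641-141447670, plus strand): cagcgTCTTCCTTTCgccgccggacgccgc
Rps12 (chr10:23787190-23787219, minus strand): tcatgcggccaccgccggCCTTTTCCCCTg
Rps15 (chr10:80292421-80292450, plus strand): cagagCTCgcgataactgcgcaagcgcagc
Rpl10l (chr12:66284382-66284411, minus strand): CCTCCattttgcggctggcggtgggcacgc
The capital run spans the annotated start in Rps6, Rps18 and Rplp2. It lies downstream of the start in Rps12, and in Rps15 and Rpl10l no run longer than 5 bases fell in the window. A C at the start followed by 4 pyrimidines on the gene strand was found in 10 of the 45 core genes matched to the table (22.2%), in 0 of 5 matched paralogs and in 400 of 14955 other measured protein-coding genes (2.7%). A run of at least 8 pyrimidines between 20 bases before and 30 bases after the start was found in 23 core genes (51.1%) and in 21.3% of the others. A match in these letters is no measurement of translation, and annotated starts can differ from the start used in this tissue. The 10 core genes with the strict start, the copy Rpl32l among them, had a median difference of -0.0283 with 6 lower. The 35 without it had -0.05 with 25 lower.

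No ribosomal protein differed between the genotypes past the threshold. Across all 21789 probe sets limma called 7 at a Benjamini-Hochberg adjusted p under 0.05, which is 0.0321%, all lower in the knockout, and 0 of the 219 ribosomal probe sets were among them. The lowest adjusted p of a member was 0.3056. At an unadjusted p under 0.05, 5 members were lower and 0 higher, where 6.74% of all probe sets were lower and 5.69% higher. The largest difference in either direction corresponded to 1.143-fold.

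Most members nevertheless lay slightly below zero. Of the 219 probe sets, 165 were lower, 48 higher and 6 equal in the knockout, with a median of -0.0533 and the middle of the distribution between -0.0883 and -0.0033. By gene, 43 symbols had a median below zero, 17 above and 3 at zero, and the median over genes was -0.0367. In 23 members every knockout array lay below every wild-type array (10.5%), and in 5 every knockout array lay above (2.28%). Over all probe sets these shares were 11.3% and 6.51%, both higher than the shares among ribosomal proteins.

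Ribosomal protein mRNAs are among the brightest on the arrays, and bright probe sets as a whole lay lower in the knockout. When the 21789 probe sets were split into 10 bins by their mean over the 6 arrays, 167 members fell in the brightest bin, 23 in the next and 12 in bin 8. The medians of the bins ran up to 0.0667 in bin 3 and down to -0.0533 in bin 8. In the brightest bin the members had a median of -0.0467 with 73.05% lower, against -0.0433 with 75.75% lower for the 2012 other probe sets of that bin. Complete separation below the wild-type arrays held for 8.98% of the members and 21.8% of the others in that bin. In bin 9 the 23 members had a median of -0.09 and 21 of them were lower (91.3%), against a median of -0.0467 with 76.67% lower for the others. These 23 came from 11 genes, with several probe sets each of Rps28 and Rps12. Complete separation below the wild-type arrays held there for 26.09% of the members and 19.99% of the others. In bin 8 the 12 members had a median of -0.03 and the others -0.0533, with complete separation below in 8.33% and 21.46%. The level of a probe set depends on its probes as well as on the RNA, and the bins carry no test. With cyclic loess or quantile normalization, which remove trends with level, the other bright probe sets had a median of 0.0031 and the members -0.0099 and -0.0117.

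**Figure D1:**
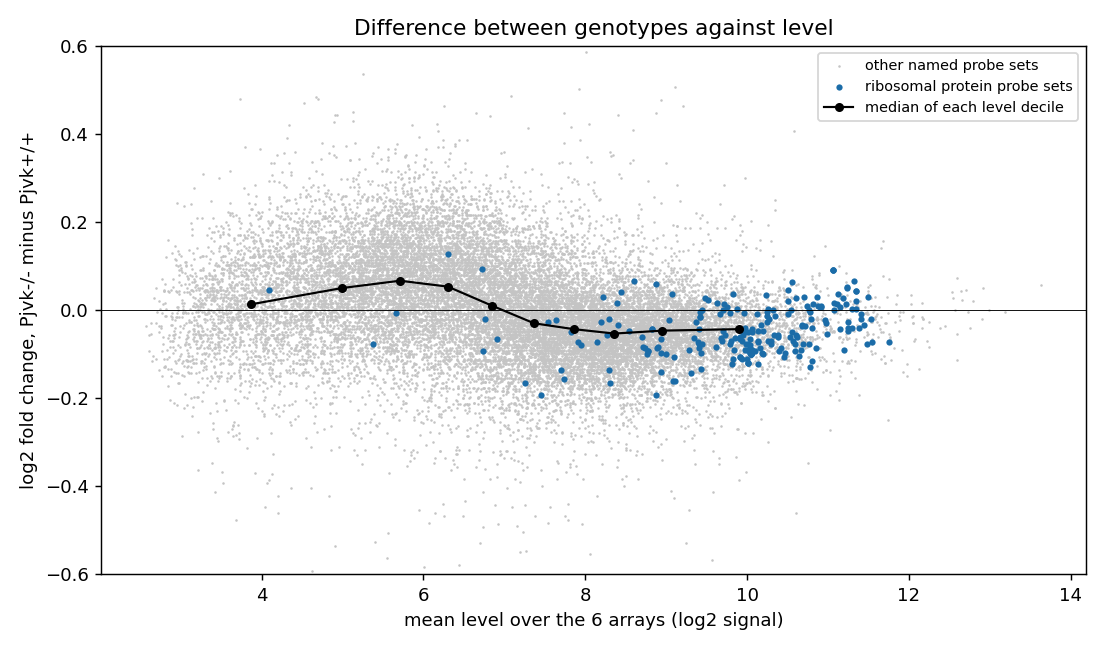
Log2 difference between knockout and wild-type (y axis) against the mean level over the 6 arrays (x axis, log2 signal) for all probe sets with 1 symbol in grey and the 219 ribosomal protein probe sets in blue, with the median of each level bin as a black line; 22 probe sets lie outside the y axis. The blue points sit mostly in the brightest bin, around the same slightly negative median as the grey points there.

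The precision of the comparison bounds what could have been missed. The median 95% interval of a member reached 0.141 to either side of its difference. For 186 of the 219 members (84.9%) the whole interval lay within 1.2-fold in either direction, and for the other bright probe sets the share was 83.8%. The interval reached past the lower bound in 33 members and past the upper bound in 1, Rpl10l. The lowest end of any interval was -0.5695, in Rps4l.

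The array values show that the 3 knockout samples did not move together. Averaged over the 219 members, the deviation from each probe set's own mean was -0.0586, 0.0333 and -0.0441 in knockout arrays 1, 2 and 3, against 0.0287, -0.0105 and 0.0513 in the wild-type arrays. Knockout array 2 therefore lay above wild-type arrays 1 and 2, and the groups overlapped. The 2012 other bright probe sets gave -0.0125, -0.0209 and -0.0364 in the knockout arrays, against 0.0437, 0.0028 and 0.0234 in the wild-type arrays. The difference of the group means was -0.0463 for the ribosomal proteins and -0.0465 for the other bright probe sets. Subtracting the bright background array by array left -0.0461, 0.0542 and -0.0077 in the knockout, against -0.015, -0.0133 and 0.0279 in the wild-type, with 0.0003 between the group means (SD 0.0506 among knockout and 0.0243 among wild-type arrays, n = 3 each). The spread among knockout samples was larger than the difference between genotypes. Leaving out knockout array 2 moved the median over members to -0.0817, leaving out knockout array 1 to -0.0283, knockout array 3 to -0.035 and wild-type array 3 to -0.0333.

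**Figure D2:**
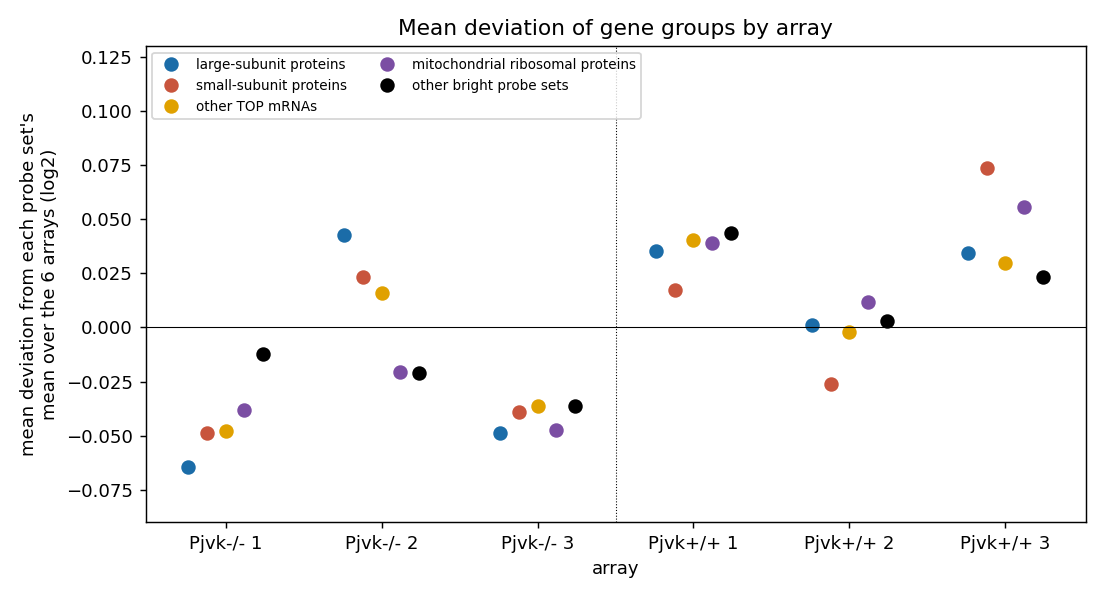
Mean deviation from each probe set's mean over the 6 arrays (y axis, log2) in every array (x axis) for large-subunit and small-subunit proteins, other TOP mRNAs, mitochondrial ribosomal proteins and other bright probe sets. Large-subunit proteins lie at -0.0647 in knockout array 1 and 0.0428 in knockout array 2, while the other bright probe sets lie below zero in all 3 knockout arrays.

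Ribosomal proteins lay lowest in knockout array 1, and the means of the osteoblast, fibroblast, supporting cell and dividing cell markers were highest there. Supporting cell markers had a mean deviation of 0.1271 and dividing cell markers of 0.0903 in that array. The means of the other marker lists were highest in other arrays. Knockout array 3, at -0.0441 for the ribosomal proteins, had osteoblast markers at 0.0125. The mean deviation of the 2 measured osteoblast markers was 0.5175, -0.2075 and 0.0125 in the knockout arrays, against -0.2175, -0.1325 and 0.0275 in the wild-type arrays. Ibsp, a matrix protein of bone, had 10.89, 9.92 and 10.27 in the knockout, against 10.09, 10.10 and 10.31 in the wild-type. Fibroblast markers were at 0.2363 in knockout array 1 and between -0.1263 and 0.0362 in the other arrays. Among them Col1a1 had 11.10, 10.44 and 10.80 in the knockout, against 10.25, 10.29 and 10.58 in the wild-type. Dcn had 12.07 in knockout array 1 and 12.10 in wild-type array 1. Of the hair cell list 7 of 7 markers were measured, with 4 higher and 3 lower. Supporting cell markers had 5 of 7 higher and a median of 0.12, skeletal muscle 5 of 5 higher and 0.1433, and macrophages 2 of 5 higher and -0.0933. The skeletal muscle markers were dim, in level bins 2, 3 and 5, where the medians of all probe sets were 0.05, 0.0667 and 0.01. The lowest value of a hair cell marker in any array was 5.95 and of a skeletal muscle marker 5.17, on a scale whose dimmest probe set averaged 2.57 over the arrays. The part of tissue makeup in the ribosomal protein values was not tested, and in bulk tissue fewer cells of a type and less RNA per cell cannot be told apart. Pjvk itself had 4.42, 4.36 and 4.21 in the knockout, against 4.75, 5.06 and 4.96 in the wild-type, a separation without overlap that limma did not call (-0.59, adjusted p = 0.1109). The dissected tissue also held neurons and fibroblasts, since the lowest value of their markers in any array was 10.32 and 9.28.

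Within the large subunit, the 128 probe sets of 34 genes had a median of -0.0567, with 102 lower, 25 higher and 3 completely below the wild-type arrays. That separation, in 2.34% of them, held for 11.3% of all probe sets and 21.8% of the other bright ones. With cyclic loess 79 of the 128 were lower. The large-subunit median was -0.0283, -0.0933 and -0.035 without knockout array 1, 2 or 3 and -0.0375 without wild-type array 3. The flexible stalk, which recruits the translation factors, lay lower in all 6 probe sets of its 4 genes, with a median of -0.0917 (-0.0595 and 5 lower with cyclic loess, and 4 lower without knockout array 3). Its acidic protein Rplp2 (probe set 10558914) had 7.42, 7.30 and 7.35 in the knockout, against 7.65, 7.53 and 7.47 in the wild-type. Every knockout value lay below every wild-type value, and the difference of -0.19 (SE 0.066) had an adjusted p of 0.3311 in limma. It ran from -0.2333 to -0.1433 with 1 array left out and was -0.1685 with cyclic loess. This probe set was in level bin 6, so it is no part of the bright group. Rplp1, the partner of Rplp2 in the stalk dimer, had 11.17, 11.18 and 11.12 in its brighter probe set in the knockout, against 11.17, 11.27 and 11.30 in the wild-type. Those groups overlap, with a difference of -0.09. Rplp0, the base of the stalk, had 10.42, 10.51 and 10.20 in the knockout, against 10.43, 10.42 and 10.54 in the wild-type, and only knockout array 3 stood apart. Without that array the Rplp0 difference of -0.0867 became 0.0017.

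The proteins at the rim of the exit tunnel, where the new peptide chain leaves the ribosome, were lower in all 22 probe sets of 4 measured genes, with a median of -0.09 (-0.0429 and 20 lower with cyclic loess, and -0.0342 and 18 lower without knockout array 1). Rpl23a, a docking site for factors that receive the chain, supplied 13 of them, between -0.1067 and -0.0167, of which 11 stayed lower with cyclic loess and 10 without knockout array 1. Its probe set 10598103 had 10.02, 10.23 and 10.20 in the knockout, against 10.31, 10.23 and 10.21 in the wild-type. Knockout array 1 was low, and the other knockout arrays lay within or close to the wild-type range. Without knockout array 1 the median over the Rpl23a probe sets was -0.0233, and without knockout array 2 -0.1417, against -0.0933 over all arrays. Rpl22, dispensable for translation itself and replaceable by its paralog Rpl22l1, had 8.69, 8.85 and 9.06 in the knockout, against 8.95, 8.95 and 9.12 in the wild-type. It differed by -0.14 (SE 0.097, adjusted p = 0.5602 in limma), and its knockout array 3 reached the wild-type level. Rpl19 lay completely below the wild-type arrays in 2 of 7 probe sets, as did 11.3% of all probe sets and 21.8% of the other bright ones. Being lower in every probe set was not particular to the rim. Outside its list, Rpl27a and Rpl36 were lower in all 9 probe sets each, with medians of -0.0933 and -0.0867. By gene, 24 large-subunit medians lay below zero and 10 above. Of the other bright probe sets 75.75% were lower, with a median of -0.0433.

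Rpl5, Rpl10 and Rpl36a lay closer to zero. Rpl5, which enters the ribosome with Rpl11 and a small ribosomal RNA and binds Mdm2 when assembly fails, had 11.14, 11.17 and 11.16 in the knockout, against 11.20, 11.11 and 11.14 in the wild-type. The difference of 0.0067 had an SE of 0.054, and the 5 Rpl5 probe sets lay between -0.0133 and 0.01. Rpl10, a late-assembling X-linked protein, ran from -0.0467 to -0.0333 over 6 probe sets with no separation. Rpl36a, also X-linked, had 0.0167 and 0.0267 in its 2 probe sets. The brightest members were Rpl21 and Rpl9: Rpl21 (10440467) had 11.72, 11.77 and 11.66 in the knockout, against 11.84, 11.73 and 11.80 in the wild-type. Rpl21 was lower in all 9 probe sets, by -0.13 to -0.0267 with a median of -0.0733. The groups overlapped in each of them, as they did in all 8 probe sets of Rpl9, whose differences ran from -0.0367 to 0.0133.

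On the higher side, Rpl41, the shortest ribosomal protein, which sits at the contact of the subunits, had 11.11, 11.18 and 11.04 in the knockout, against 10.98, 11.04 and 11.04 in the wild-type. Its 3 probe sets carry the same 6 values and count as 1 measurement, and the difference of 0.09 (SE 0.059) had an adjusted p of 0.5409 in limma. It stayed between 0.055 and 0.125 with 1 array left out and was 0.1246 with cyclic loess. Rpl32l (10361977) had 6.40, 6.28 and 6.41 in the knockout, against 6.20, 6.27 and 6.24 in the wild-type. It was the only large-subunit symbol with every knockout array above every wild-type array (0.13, SE 0.059, adjusted p = 0.4186 in limma). It lay in level bin 4, where the median of all probe sets was 0.0533, and its symbol is that of a gene copy; without it the large-subunit median was -0.0567.

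**Figure D3:**
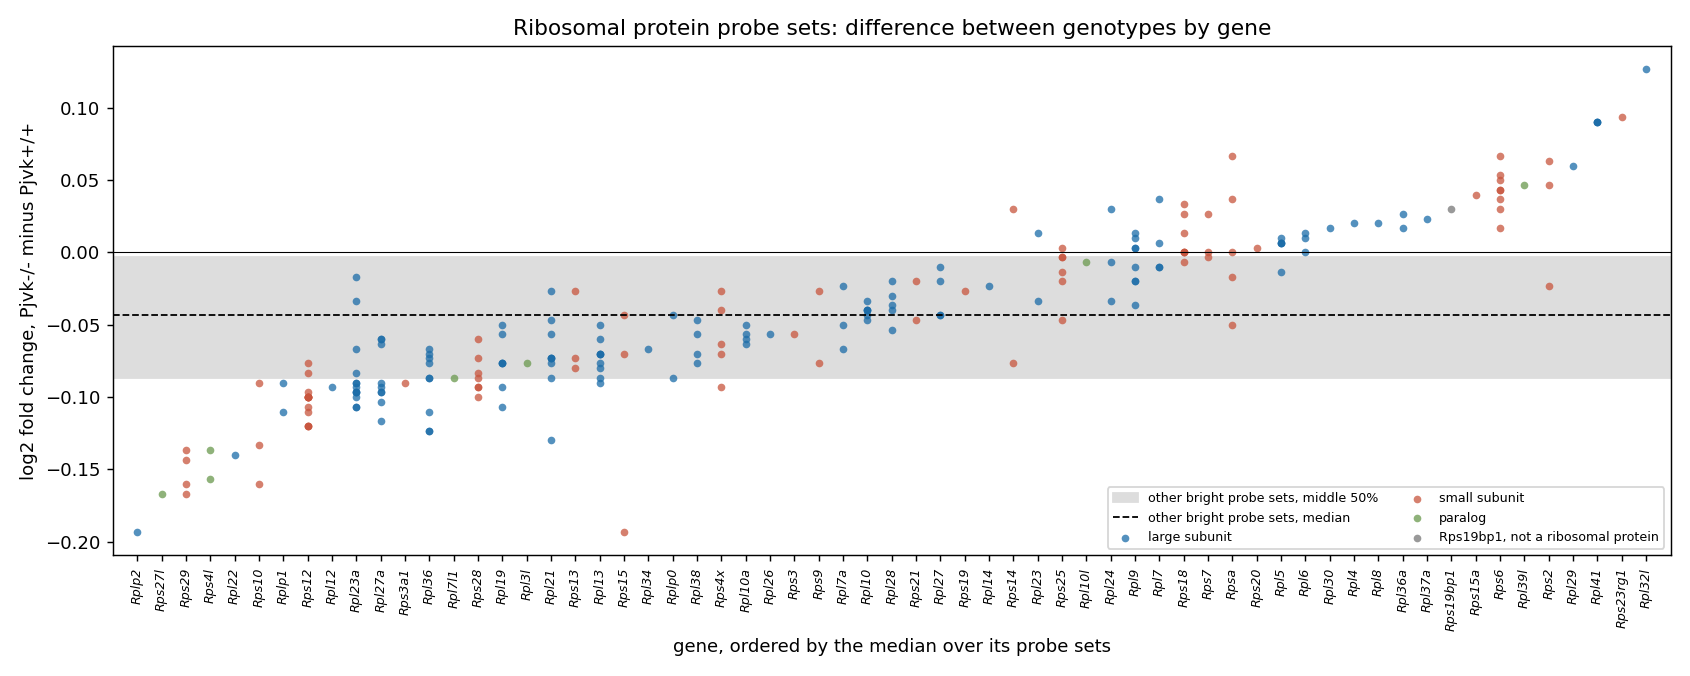
Log2 difference between knockout and wild-type (y axis) of each ribosomal protein probe set, by gene (x axis, ordered by the median over the gene's probe sets) and coloured by subunit; the dashed line and grey band give the median, -0.0433, and the middle 50% of the other bright probe sets. Probe sets of 1 gene cluster together, with Rplp2, Rps29 and Rps12 low and Rps6 and Rpl41 above zero.

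The small subunit, 83 probe sets of 22 genes, had a median of -0.0467, with 57 lower, 21 higher and 5 equal. With cyclic loess the median was 0.0024, with 41 lower, and it was -0.0267 without knockout array 1, -0.0733 without knockout array 2 and -0.025 without wild-type array 3. It held 20 of the 23 members that lay completely below the wild-type arrays (24.1% of its probe sets) and 4 of the 5 that lay completely above (4.82%). Over all probe sets these shares were 11.3% and 6.51%, and over the other bright ones 21.8% and 2.34%. The separated probe sets of the small subunit were concentrated in few genes: 12 were Rps12, 4 Rps4x and 3 Rps29 on the lower side, and all 4 on the higher side were Rps6. The 47 probe sets of 10 genes in the head of the subunit had a median of -0.0867 with 39 lower (-0.0328 and 31 with cyclic loess, and -0.0433 and 33 without wild-type array 3). The 36 probe sets of the 12 genes of the body had a median of -0.0017 with 18 lower and 16 higher, and of 0.0346 with 10 lower with cyclic loess. Rps12 alone supplied 14 of the head probe sets, and by gene the medians were -0.0633 for the head and -0.0117 for the body. The difference between head and body was not tested.

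In the head, Rps15, which lies near the decoding site and is needed for export of the subunit from the nucleus, gave the lowest unadjusted p of all members. Its probe set 10364766 had 8.70, 8.85 and 8.78 in the knockout, against 8.98, 8.92 and 9.01 in the wild-type. The groups did not overlap, and the difference was -0.19 (SE 0.061, adjusted p = 0.3056 in limma). The 2 brighter Rps15 probe sets did not share this size, with -0.07 and -0.0433 (the second at 0.008 with cyclic loess) and overlapping groups. Rps15 was the gene whose probe sets differed most from each other.

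Rps29, a small zinc-binding protein, was lower in all 4 probe sets, by -0.1667 to -0.1367, and in all 4 with cyclic loess and without any 1 array. Probe set 10490126 had 8.99, 9.08 and 8.95 in the knockout, against 9.13, 9.13 and 9.24 in the wild-type (-0.16, SE 0.062, adjusted p = 0.3598 in limma). The groups were fully separated in 3 of the 4 Rps29 probe sets, and in the remaining 1 they met at 8.28. Rps12, at the beak of the head and known in Drosophila for marking cells with too few ribosomal proteins, was lower in all 14 probe sets, by -0.12 to -0.0767, and in all 14 with cyclic loess and without any 1 array. Probe set 10606565 had 9.90, 10.01 and 9.95 in the knockout, against 10.09, 10.03 and 10.10 in the wild-type (-0.12, SE 0.057, adjusted p = 0.4194 in limma). Of the 14 probe sets only 8 had values of their own, so the 12 separated ones are fewer independent readings than their number. Complete separation below the wild-type arrays held for 11.3% of all probe sets. Among those other than members it held for 21.46%, 19.99% and 21.8% in bins 8, 9 and 10, where the Rps29 and Rps12 probe sets lay. Rps19, the gene most often mutated in Diamond-Blackfan anaemia, had 7.53, 7.53 and 7.51 in the knockout, against 7.46, 7.55 and 7.64 in the wild-type, an overlap with a difference of -0.0267.

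In the body, Rps6, the substrate of the S6 kinases downstream of mTOR, was higher in all 8 probe sets, by 0.0167 to 0.0667. With cyclic loess all 8 stayed higher, with a median of 0.0744, and without wild-type array 2 1 was lower. Probe set 10424823 had 11.34, 11.38 and 11.33 in the knockout, against 11.29, 11.27 and 11.29 in the wild-type. The groups did not overlap in this probe set, but the size, 0.067 (SE 0.051), was small and the adjusted p in limma was 0.5996. Rps4x, encoded on the X chromosome, lay lower in 5 of 5 probe sets, by -0.0933 to -0.0267, but in only 3 with cyclic loess or quantile normalization. Its probe set 10606939 had 10.04, 10.02 and 10.11 in the knockout, against 10.15 in each of the wild-type arrays. Rpsa, which binds at the back of the subunit and is also known as the laminin receptor precursor, was split, from -0.05 to 0.0667 over 5 probe sets. Rps14 was split as well, with 0.03 and -0.0767 in its 2 probe sets. Rps23rg1, a retroposed copy of Rps23, had 6.73, 6.83 and 6.75 in the knockout, against 6.77, 6.67 and 6.59 in the wild-type, and differed by 0.0933 with overlap.

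**Figure D4:**
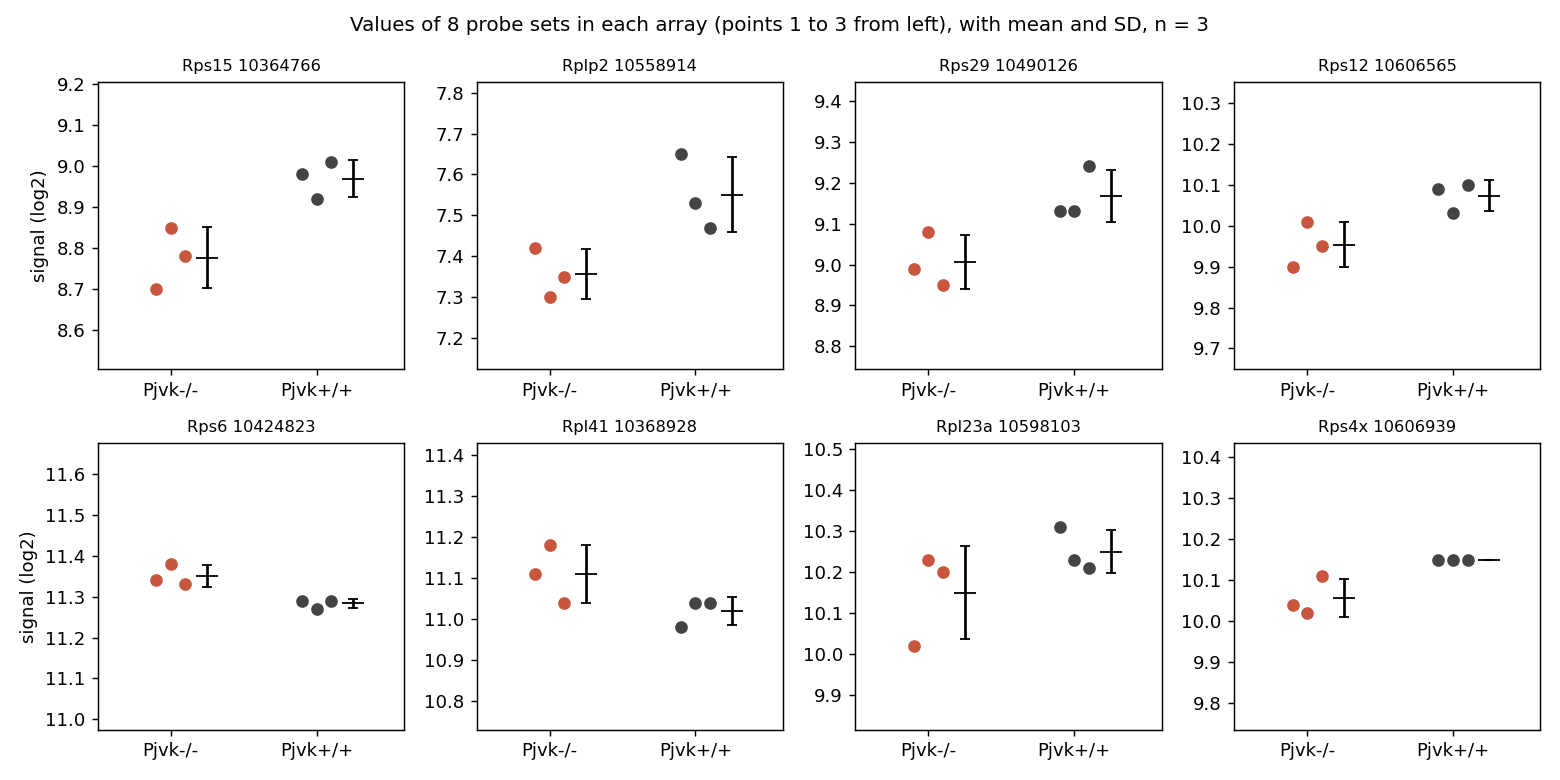
Log2 signal (y axis) in each knockout array (red, left) and wild-type array (grey, right) for the probe set with the lowest unadjusted p of 8 genes, with the mean and SD (n = 3); every panel spans the same height. The groups are apart in Rps15, Rplp2, Rps29, Rps12, Rps6 and Rps4x and overlap in Rpl41 and Rpl23a. The 8 genes are a selection from those described in the text and do not stand for all members. Of the 219 members, 23 lay completely below and 5 completely above the wild-type arrays.

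The paralogs showed no separation in any of their 7 probe sets and a median of -0.0867, which was -0.04 without wild-type array 3 and -0.05 without knockout array 1. Rps27l, a p53-responsive relative of Rps27, had 7.17, 7.24 and 7.09 in the knockout, against 7.52, 7.09 and 7.39 in the wild-type, with a difference of -0.17 and an SE of 0.10. Rpl3l, a form of striated muscle, differed by -0.0767, and the forms known from testis, Rpl10l and Rpl39l, by -0.0067 and 0.0467. These 3 were the dimmest members, in level bins 2, 3 and 1. Rpl10l varied from 5.49 to 5.90 among knockout arrays and from 5.44 to 5.95 among wild-type arrays, and its difference changed sign when knockout array 2, knockout array 3 or wild-type array 1 was left out. Rps19bp1, the partner protein of Rps19, differed by 0.03.

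Probe sets of 1 gene resembled each other more than those of different genes. Over 37 genes with several distinct probe sets, 180 in all, the SD of the differences within a gene was 0.0244 and that of the gene means 0.0465. The median SE of a single probe set was 0.061, larger than either. In 23 of these genes every probe set was lower and in 2, Rps6 and Rpl36a, every probe set was higher. Probe sets of 1 gene read the same RNA in the same 6 samples and are not replicates, and 19 members shared all 6 values with another probe set of their gene. Ribosomal protein genes also have many processed pseudogenes close to the parent sequence, and the annotation used here does not tell which copies a probe set reads.

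**Figure D5:**
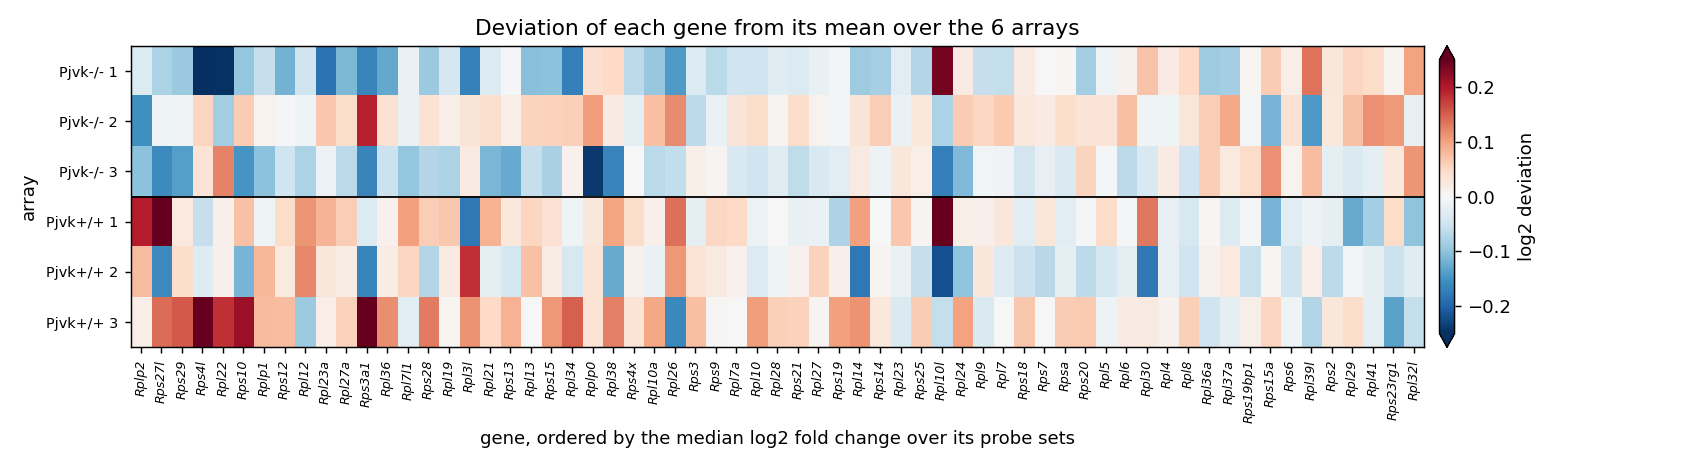
Deviation of each ribosomal protein gene (x axis, ordered by its median log2 difference) from its mean over the 6 arrays, in every array (y axis, knockout arrays above, wild-type arrays below), with red for higher and blue for lower on the log2 scale. In knockout arrays 1 and 3, 43 of the 63 genes lie below their own mean each, while in knockout array 2 44 lie above it, and in wild-type array 3 46 do.

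Members differed in which array set their value, as the plot of deviations by gene and array shows. Rpl38, in which the mouse Tail-short mutation causes skeletal defects and hearing loss, was picked for its pattern after its values were seen. Its probe set 10548976 had 10.38, 10.35 and 10.17 in the knockout, against 10.42, 10.20 and 10.45 in the wild-type. Knockout array 3 and wild-type array 2 were low together, in Rps10 as well as in all 4 probe sets of Rpl38. In Rpl13, Rpl27a, Rpl36 and Rpl23a, also picked after their values were seen, knockout array 1 was the lowest of the 6 in all 40 probe sets. Among the bright probe sets outside the group, the deviations most like the mean of the members belonged to Lrp2, an endocytic receptor (Pearson's r = 0.983 over the 6 arrays), Aif1l (0.975) and Timp3, an inhibitor of metalloproteinases (0.973). These were picked as the highest of 2012 on 6 points and carry no test.

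The other genes of the pathway also showed small differences without a call. Of the other TOP mRNAs, 15 of 20 listed genes were measured in 21 probe sets, with a median of -0.0667, 17 lower, 3 higher and 0 called (-0.0216 and 13 lower with cyclic loess). Tpt1, the translationally controlled tumour protein, was lower in its 4 probe sets, by -0.14 to -0.0933, with overlapping groups in 1 of them. The lowest had 11.83, 11.91 and 11.85 in the knockout, against 12.06, 11.96 and 11.99 in the wild-type (adjusted p = 0.3749 in limma). In the whole list 5 probe sets lay completely below the wild-type arrays (23.8%), beside 21.8% of the other bright ones and 11.3% of all. Nap1l1, a histone chaperone, had 9.63, 9.63 and 9.64 in the knockout, against 9.57, 9.48 and 9.48 in the wild-type, and was the higher exception (0.12, adjusted p = 0.4023 in limma). The elongation factor subunits Eef1d and Eef1b2 differed by -0.09 and -0.0833. In the mean over the list, knockout array 2 was again the highest knockout array, with -0.0478, 0.016 and -0.0363 in the knockout, against 0.0403, -0.0021 and 0.0298 in the wild-type.

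Ribosome assembly factors, 31 probe sets of 29 genes, had a median of -0.04 with 21 lower, 8 higher and 0 called (0.0035 and 15 lower with cyclic loess, and -0.02 without wild-type array 1). Rpf2, which brings Rpl5 and Rpl11 into the large subunit, had 7.03, 7.03 and 7.13 in the knockout, against 6.87, 6.82 and 6.94 in the wild-type. It lay higher without overlap (0.19, SE 0.060, adjusted p = 0.3128 in limma). Wdr12, which acts in large-subunit maturation, differed by -0.1967 in its dimmer probe set and by -0.04 in the other. Polr1b, of ribosomal RNA transcription, and Bysl, of small-subunit maturation, differed by -0.17 and -0.1567. Of the regulators, 12 genes in 13 probe sets had a median of -0.04 with 9 lower and 0 called (-0.0129 and 7 lower with cyclic loess, and -0.065 without knockout array 1, -0.02 without knockout array 2 and -0.025 without knockout array 3 or wild-type array 2). Tsc2, an inhibitor of mTOR signalling, differed by -0.16, Larp1 by -0.1067 in its lower probe set, Rheb, which activates mTOR, by -0.1167, and Mtor by -0.0667. These 4 include an inhibitor and an activator of the same kinase.

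Mitochondrial ribosomal proteins, which translate the mitochondrial genome and share no genes with the cytosolic set, had a median of -0.0767 over 85 probe sets of 77 genes, with 68 lower and 0 called (-0.0358 and 58 lower with cyclic loess). Their mean deviations were -0.0381, -0.0208 and -0.0476 in the knockout arrays, against 0.0388, 0.0119 and 0.0557 in the wild-type arrays. The genotypes did not overlap in this mean, whereas they did in that of the cytosolic proteins. The mean of the 2012 other bright probe sets did not overlap either. It lay at -0.0125, -0.0209 and -0.0364 in the knockout arrays, against 0.0437, 0.0028 and 0.0234 in the wild-type arrays. Complete separation below the wild-type held for 19 mitochondrial probe sets (22.4%) and 23 cytosolic ones (10.5%), beside 11.3% of all probe sets. Among probe sets other than the cytosolic members the share was 21.8%, 19.99% and 21.5% in bins 10, 9 and 8. In bins 1 to 7 it was 7.27%, and mitochondrial probe sets lay there too, such as Mrpl17 in bin 6 and Mrpl42 in bin 4. No test of the difference between the mitochondrial and cytosolic lists was made.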

How the data were processed

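Total RNA of 6 organ of Corti samples was labelled with biotin for an Affymetrix mouse ST array, per the labels' protocols. They were processed with the Affymetrix Expression Console, per the submitters' processing notes, with a version, summarization and normalization not given in the sources used here. Values are log2 signals as deposited by the authors, with array medians from 6.66 to 6.69 and correlations between arrays from 0.991 to 0.994, and were used without further normalization. Names came from the platform's gene annotation; 12147 had no symbol and 1621 several.

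limma 3.58.1 (R 4.3.3; lmFit and eBayes, no covariate) was fitted on the 21789 probe sets with 1 symbol. P-values were adjusted by Benjamini-Hochberg over all of them and called under 0.05. The script was tested on simulated data. Lists of genes are described by counts and medians without a test. The members and lists were chosen with earlier results of these data known. Named genes were a set of well-known members, the 8 lower and 8 higher members with the lowest unadjusted p, the 3 brightest and 3 dimmest, the 5 genes whose probe sets differed most, and up to 4 genes of each other list. Filters, normalizations, probe set choice, variance model, a Y-linked covariate, the replicate number and left-out arrays were tried as alternatives. Start sites came from RefSeq (GRCm38.p6). Only 6 arrays limit the precision.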

Additional observations from a re-analysis of the deposited data

How the results depend on the processing

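No ribosomal protein was called under any alternative, and the lowest adjusted p of a member in limma ran from 0.1418 with an intensity trend and robust priors to 0.9076 with a Y-linked covariate. Over all probe sets the number called was 21 above the 25th percentile of level, 43 above the median, 1 over the whole table, 96 with the trend, 0 with the Y-linked covariate, and 2 to 6 with 1 array left out. The replicate numbers did not pair the samples, with correlations of 0.0804, 0.016 and -0.0142 for equal numbers, and as a block they left 1 call. The median of the members, -0.0533, came to -0.0117 after quantile normalization and to -0.0099 after cyclic loess, both of which remove level trends and bring the other bright probe sets to 0.0031. The large-subunit median was then -0.0135 and -0.0122, and the small-subunit median with cyclic loess 0.0024. With 1 array left out the members' median ran from -0.0817 to -0.0283, the large-subunit median from -0.0933 to -0.0283 and the small-subunit median from -0.0733 to -0.025. By gene, with the brightest probe set or the mean of all, 42 of 63 were lower; the count differs from 165 because it is over genes.

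Single probe sets near zero changed sign under some alternatives, and none of them was called. After quantile normalization Rps4x (10562663) was at 0.0167, Rps19 at 0.0056, Rpl21 (10584122) at 0.0072 and Rpl23a (10579657) at 0.0325. After cyclic loess these were at 0.0173, 0.0026, 0.0056 and 0.0345, Rpl9 (10489049) at 0.0087 and Rps15 (10541520) at 0.008. With median centring Rpl10l was at 0.0033. With the Y-linked covariate Rpl10l was at 0.3731, Rps19bp1 at -0.0017, Rpsa (10437934) at -0.0311, Rpl21 at 0.0146 (10548246) and 0.0114 (10584122), Rpl9 at 0.0013 and Rps14 (10498155) at -0.0204. With 1 array left out Rpl10 (10485654) ran from -0.0633 to 0.01, Rpl5 (10523893) from -0.0133 to 0.0317, Rplp0 (10436694) from -0.1533 to 0.0017, Rps4x from -0.0533 to 0.0017, Rpsa (10373569) from -0.115 to 0.04, Rpl36a (10601755) from -0.015 to 0.0767 and Rps19 from -0.0717 to 0.0183. In the same way Rpl10l ran from -0.1283 to 0.1367, Rpl39l from -0.01 to 0.13, Rpl9 from -0.0467 to 0.0033, Rpl21 (10584122) from -0.0533 to 0.0117, Rpl23a from -0.065 to 0.075 and Rps14 from -0.0033 to 0.0717. The causes of these shifts were not tested, and the number of arrays limits the precision.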

Other observations

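The 239 probe sets that list a ribosomal protein together with other symbols gave a median of -0.0333, with 197 lower (82.4%) and a range from -0.2 to 0.09. Of these, 234 name 1 ribosomal protein symbol and 5 name 2. Their mean deviations were -0.0375, 0.0363 and -0.0689 in the knockout arrays, against 0.0314, -0.0033 and 0.042 in the wild-type arrays. Knockout array 2 was the highest knockout array there too. These probe sets did not enter the values above, but they read RNA of the same 6 samples and are no independent check. The share lower in the knockout was 54.07% over all probe sets with 1 symbol and 75.75% over the other bright ones.

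All 3 measured Y-linked genes, whose level depends on the sex of the sampled animals, were lower in the knockout, by -0.4033 to -0.33. The groups did not overlap in 2 of them, as in 11.3% of all probe sets on the lower side, and none was called in limma (lowest adjusted p = 0.2417). The mean deviation of these genes was -0.0944, -0.1611 and -0.2811 in the knockout arrays, against 0.3756, 0.1856 and -0.0244 in the wild-type arrays. The Y-linked mean therefore differed between the genotypes without overlap, and the part of sex in the ribosomal protein values was not tested. With that level as a covariate the median of the ribosomal proteins was -0.0614. In that fit 0 of all probe sets were called, so the lack of called ribosomal proteins there says nothing particular about them.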
